A study of Mus musculus with 39 samples.

Results

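The genes described here are the metallothionein genes Mt1 and Mt2, the metal-responsive transcription factor gene Mtf1, the zinc importer genes Slc39a14, Slc39a4 and Slc39a8, and the transporter genes Slc30a1 and Slc30a10, measured in mouse liver. Their probes were found by RefSeq accession, which gave 13 of the 25903 RefSeq probes tested and 8 of the 18259 genes. All 8 genes had a probe. Mt1, Mt2 and Slc39a4 had 1 probe each and the other 5 genes had 2, of which the probe with the higher mean signal was used.

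Metallothioneins are small cysteine-rich proteins that bind zinc and copper in the cytosol. When cytosolic zinc rises, MTF1 binds it and switches on the metallothionein genes, whereas importers of the SLC39 (ZIP) family bring zinc into the cytosol and exporters of the SLC30 (ZnT) family move it out of the cell or into vesicles. The liver is known for a strong rise of metallothioneins and of the importer SLC39A14 during the acute phase response, in which IL-6 and glucocorticoids act on hepatocytes.

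Liver RNA came from 39 singly housed male C57BL/6J mice, which were 5 to 6 wks old at purchase, with 1 array per mouse. AggE mice were placed, inside a smaller cage, in the home cage of an SJL aggressor mouse, 6 hrs each day, over 5 or 10 days, with short bouts of physical contact in which the aggressor could attack, and Ctrl mice were placed in the same way without an aggressor and with the same loss of access to food. Livers were taken 24 hrs after the 5-day regimen (4 Ctrl, 5 AggE), 24 hrs after the 10-day regimen (4 Ctrl, 5 AggE), 1.5 wks after the 5-day regimen (4 Ctrl, 5 AggE) and 4 wks after the 10-day regimen (6 Ctrl, 6 AggE). Mice had a partition test, in which a cue of the aggressor is given across a partition, 1 h before collection. The labels also state 1 day of exposure for the 24-hr post-5-day AggE group, and the number 10 stands in sample titles of the 1.5-wk AggE group and of Ctrl mouse 4 there. The title of that Ctrl mouse starts with HC and those of the other Ctrl mice with C, and what HC stands for is not known here. The groups here follow the source name. The p-values measure the spread between mice of a group.

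Each array compared liver RNA (Cy-5) with a commercial mouse reference RNA (Cy-3), with no dye swap. Values are log2 ratios of liver to reference after normalization, so that a value of -1 is a 2-fold lower signal in liver than in the reference. In Cy-5, 14.8% to 70.1% of the probes on an array were well above background, as marked by the scanner software. At 24 hrs post-5-day this share was 24.9% to 30.5% in Ctrl and 15.3% to 27.8% in AggE, and at 24 hrs post-10-day it was 30.3% to 43.7% and 31.7% to 43.7%. The number of arrays limits the precision. The 39 arrays were spread over 11 slides and 2 scan days. In neither 24-hr comparison did a slide hold both AggE and Ctrl mice, and there slide and treatment cannot be told apart by a fixed slide term.

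Hepatocyte markers were high in liver against the reference. The mean log2 ratio of 6 measured markers (of 8) lay between 4.94 and 6.68 over all mice, and all 6 were above background in every group. In whole liver, fewer cells of a type and less RNA per cell cannot be told apart.

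The promoters of Mt1 and Mt2 are shown because both genes moved together in these livers and both carry copies of the core of the metal response element, the site that MTF1 binds. The core was searched as TGCACNC or TGCGCNC on both strands. The sequences are from RefSeq promoters of GRCm38.p6, which had entries for 6 of the 8 genes. The deposited files name an older build (mm8), so no coordinates of theirs are used. Capitals mark core matches, and each line gives the 250 bases before the transcription start on the plus strand. The start is the annotated one of the RefSeq entry, and positions count from it. Whether liver uses this start was not tested, and sites more than 50 bases after it were not searched.
Mt1 chr8:94178839-94179088: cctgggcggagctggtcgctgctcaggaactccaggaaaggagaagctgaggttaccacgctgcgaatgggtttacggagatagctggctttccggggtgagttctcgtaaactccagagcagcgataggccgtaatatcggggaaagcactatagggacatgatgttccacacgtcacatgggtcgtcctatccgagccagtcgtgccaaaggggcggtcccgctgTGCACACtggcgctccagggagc
Mt2 chr8:94172368-94172617: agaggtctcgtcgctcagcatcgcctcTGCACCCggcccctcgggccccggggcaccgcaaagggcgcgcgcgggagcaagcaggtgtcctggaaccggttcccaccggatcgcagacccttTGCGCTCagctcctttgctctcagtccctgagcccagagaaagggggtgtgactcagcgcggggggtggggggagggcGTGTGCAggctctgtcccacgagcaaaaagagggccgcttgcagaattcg

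The Mt1 window held 1 core match before the start, at position -23, and a short stretch just after the start held 2 more, which is the reason for printing it.
Mt1 chr8:94179091-94179115: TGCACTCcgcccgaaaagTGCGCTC
The Mt2 window held matches at positions -223, -128 and, on the minus strand, -50, with 1 more on the minus strand just after the start. In windows of 300 bases (250 before and 50 after the start), Mt1 thus had 3 matches and Mt2 had 4. Of 32851 promoters of the same length, 25.7% had at least 1 match, 1.97% at least 3 and 0.52% at least 4. Slc30a10 had 3 matches, 2 of which overlap on opposite strands, Slc30a1 had 2, the 2 promoters of Slc39a8 had 0 and 1, and Mtf1 had 0. A match is only a run of letters, and binding was not measured.

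At 24 hrs after the stressor, Mt1 and Mt2 were higher in the livers of AggE mice than in those of Ctrl mice after both regimens, and none of the 6 other genes was called. A gene was called where limma's p, adjusted by Benjamini and Hochberg's method over all 25903 probes, was at most 0.05. At 24 hrs post-5-day, 2 of the 8 genes were called, both higher, where 3.03% of all genes were called and 1.62% were called higher. At 24 hrs post-10-day, the same 2 of 8 were called, both higher, where 0.0931% of all genes were called and 0.0876% were called higher. In these genes the AggE and Ctrl ranges did not overlap, a pattern with AggE higher that 2.61% of all genes showed post-5-day and 1.1% post-10-day.

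Mt1 encodes metallothionein-1. In the 4 Ctrl mice at 24 hrs post-5-day its log2 ratio was -3.52, -3.67, -4.13 and -4.05, and in the 5 AggE mice it was 0.32, -0.32, -1.34, 1.30 and -0.48. The lowest AggE mouse lay above the highest Ctrl mouse by more than the whole Ctrl range. The means were -3.84 ± 0.29 (SD, n = 4) and -0.10 ± 0.98 (SD, n = 5), which is 3.74 apart on the log2 scale (SE 0.52, 95% interval 2.68 to 4.79, 13.4-fold, limma adjusted p = 4.77e-05).

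At 24 hrs post-10-day, Mt1 was at -3.89, -3.56, -3.34 and -3.15 in Ctrl mice and at 0.69, 0.04, 0.12, -0.46 and -2.11 in AggE mice. AggE mouse 5 stood lowest of its group and still above all Ctrl mice. Its array lay on another slide than the arrays of the other AggE mice, and the part of the slide in its value was not tested. AggE exceeded Ctrl by 3.14 on the log2 scale (SE 0.52, 95% interval 2.09 to 4.20, 8.82-fold, limma adjusted p = 0.00164).

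Mt2 encodes metallothionein-2, whose gene neighbours Mt1. At 24 hrs post-5-day it was at -3.96, -3.80, -4.29 and -4.17 in Ctrl mice and at 0.83, -0.41, -1.02, 2.28 and -0.42 in AggE mice. All AggE mice were above all Ctrl mice, and AggE mouse 4 was the highest for Mt2 as for Mt1. The means were -4.06 ± 0.22 (SD, n = 4) and 0.25 ± 1.32 (SD, n = 5), which is 4.31 apart on the log2 scale (SE 0.83, 95% interval 2.62 to 5.99, 19.8-fold, limma adjusted p = 0.00372).

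At 24 hrs post-10-day, Mt2 was at -4.33, -3.48, -3.64 and -3.52 in Ctrl mice and at 1.50, 1.1, 1.35, -0.07 and -1.85 in AggE mice. AggE mouse 5, on another slide than the other AggE mice, was again the lowest of its group, and the groups did not overlap. AggE exceeded Ctrl by 4.15 on the log2 scale (SE 0.83, 95% interval 2.47 to 5.83, 17.8-fold, limma adjusted p = 0.0239). This call was lost when any of Ctrl mice 1, 2, 3 or 4 or AggE mice 1, 2 or 3 was left out (limma adjusted p = 0.0822 to 0.131), with a log2 fold change of 3.88 to 4.72 over all 9 omissions. It was also lost without normalization between arrays (4.31, limma adjusted p = 0.145), and fitting the 2 groups alone ended the post-10-day calls of Mt1 and Mt2 (limma adjusted p = 0.083 each).

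**Figure D1:**
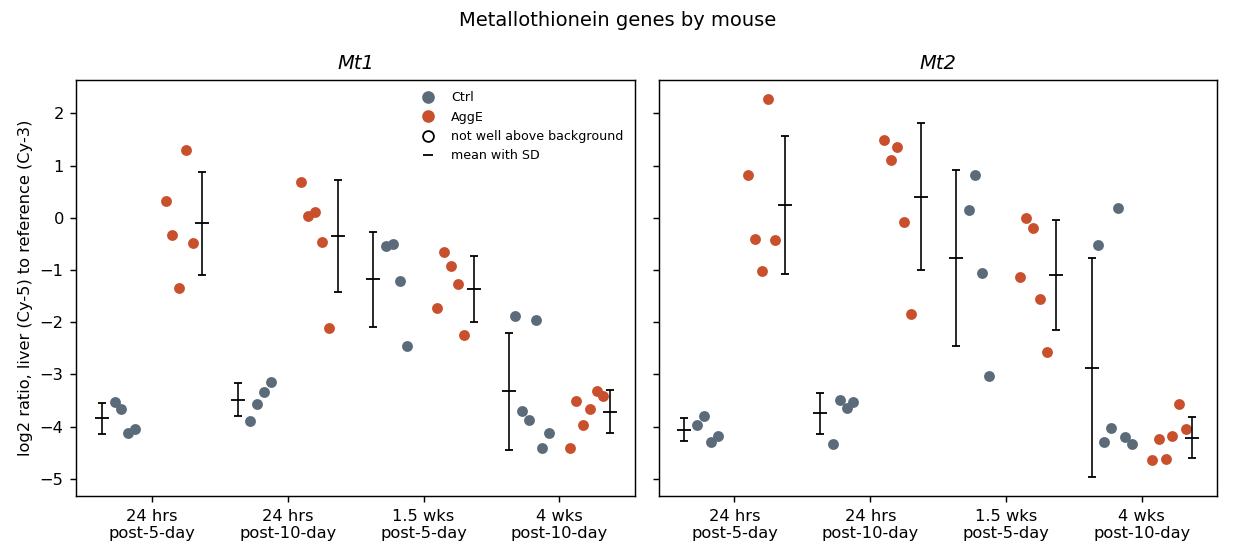
Log2 ratio of liver to reference for Mt1 (left) and Mt2 (right), with 1 point per mouse, Ctrl in grey and AggE in red, and the mean with its SD beside each group. At both 24-hr points every AggE mouse lies above every Ctrl mouse, whereas at 1.5 wks both groups are spread between about the 24-hr levels of AggE and Ctrl, and at 4 wks Ctrl mice 1 and 4 stand above the other 10 mice.

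With the slide as a random block, the sizes changed little but the calls at 24 hrs ended. Post-5-day the log2 fold change was then 3.62 for Mt1 (limma adjusted p = 0.0713) and 4.10 for Mt2 (0.36), and post-10-day it was 2.86 and 3.79 (limma adjusted p = 1 for both). The markers of other cells were not called at either 24-hr point. For 6 leukocyte and neutrophil markers post-5-day, the mean log2 ratio was -0.26 to -0.07 in Ctrl and -0.29 to -0.07 in AggE, with 2 of 6 above background on any array of either group. Post-10-day it was -0.19 to -0.03 and -0.12 to 0.10, with 4 of 6 above background on any array, 5 of 6 with a higher AggE mean and none called. For 6 hepatocyte markers it was 6.07 to 6.29 and 5.68 to 6.68 post-5-day, and 5.58 to 5.81 and 5.62 to 6.24 post-10-day. For 5 Kupffer cell markers it was 2.12 to 2.58 and 2.31 to 2.78 post-5-day, and 1.58 to 2.30 and 2.47 to 2.71 post-10-day, where all 5 had a higher AggE mean, 2 had an unadjusted p of 0.05 or less and none was called by limma. All 4 skeletal muscle markers also had a higher AggE mean post-10-day, with a mean log2 ratio per mouse of 0.21 to 2.0 in Ctrl and 0.28 to 2.31 in AggE and none called. The part of the leukocyte, Kupffer cell and muscle markers and of the share of probes above background in the metallothionein values was not tested.

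The change after 5 days was not distinguishable from that after 10 days. The difference between the changes was 0.60 for Mt1 (SE 0.73, 95% interval -0.90 to 2.09, limma adjusted p = 0.991) and 0.16 for Mt2 (SE 1.17, 95% interval -2.22 to 2.54, limma adjusted p = 1). These intervals allow a difference of over 4-fold in either direction for Mt2. None of the 8 genes was called in this limma comparison, and 0 of 8 had an unadjusted p of 0.05 or less, where 0.0329% of all genes were called and 6.35% had such an unadjusted p.

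At 1.5 wks post-5-day, Mt1 and Mt2 did not differ detectably between AggE and Ctrl mice, and in both groups most mice were well above the Ctrl mice of the 24-hr points. Mt1 was at -0.54, -0.50, -1.21 and -2.46 in Ctrl mice and at -1.73, -0.66, -0.93, -1.26 and -2.24 in AggE mice. The groups overlapped almost wholly, and AggE minus Ctrl was -0.19 (SE 0.52, 95% interval -1.24 to 0.87, limma adjusted p = 1). Mt2 was at 0.15, 0.83, -1.05 and -3.02 in Ctrl mice and at -1.14, 0.00, -0.20, -1.55 and -2.57 in AggE mice. Ctrl mouse 4 was the lowest for both genes, and its array was scanned on the other day from the arrays of the other 3 Ctrl mice. It is also the Ctrl mouse whose title starts with HC. The log2 fold change of Mt2 was -0.32 (SE 0.83, 95% interval -2.0 to 1.36, limma adjusted p = 1). Without Ctrl mouse 4 the log2 fold change was -0.61 for Mt1 and -1.07 for Mt2, and neither was called.

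Within scan days the differences were as follows. On the first day (4 AggE, 3 Ctrl) the AggE mean minus the Ctrl mean was -0.79 for Mt1 and -1.34 for Mt2, and on the second day (1 AggE, 1 Ctrl, on different slides) it was 1.80 and 3.02, of the opposite sign but from single mice. On the slide that held both groups (1 AggE, 3 Ctrl) it was -1.49 and -2.55. None of the 8 genes was called by limma at 1.5 wks, where 0% of all genes were called, and 1 of 8 had an unadjusted p of 0.05 or less, against 2.53% of all genes.

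At 4 wks post-10-day the lowest, median and highest Mt1 values were -4.41, -3.79 and -1.88 in 6 Ctrl mice and -4.40, -3.58 and -3.31 in 6 AggE mice. Those of Mt2 were -4.34, -4.11 and 0.18 in Ctrl and -4.63, -4.20 and -3.56 in AggE. Ctrl mouse 1 (-1.88 and -0.52) and Ctrl mouse 4 (-1.95 and 0.18) were high for both genes, and the other 4 Ctrl mice were within or near the AggE range. These mice lay on different slides. The log2 fold change was -0.39 for Mt1 (SE 0.45, 95% interval -1.29 to 0.52, limma adjusted p = 0.688) and -1.34 for Mt2 (SE 0.71, 95% interval -2.79 to 0.11, limma adjusted p = 0.286). Both sizes moved with the mice and slides used. For Mt1 and Mt2, in this order, without Ctrl mouse 1 it was -0.10 and -0.87 and without Ctrl mouse 4 it was -0.11 and -0.73, whereas on the slide that held both groups (1 AggE, 3 Ctrl) it was -0.90 and -1.84 and with slide as a fixed block -1.49 and -2.91, with neither gene called in these fits (limma adjusted p = 0.173 to 0.938). None of the 8 genes was called by limma at 4 wks, where 4.01% of all genes were called. Of the 8, 1 had an unadjusted p of 0.05 or less, against 22.4% of all genes. All 6 hepatocyte markers had a lower AggE mean at 4 wks, with mean log2 ratios of 5.83 to 6.63 in Ctrl and 4.94 to 6.29 in AggE and none called, and of 4 cholangiocyte markers Epcam was called lower (limma adjusted p = 0.0242, or 0.122 under the random slide block), with a signal at least 1.12-fold higher in Ctrl. That bound sets the Ctrl mean against, per AggE array, the higher of its value and the lowest signal of any probe above background, on Cy-5 values scaled between arrays. The part of these markers in the values was not tested.

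**Figure D2:**
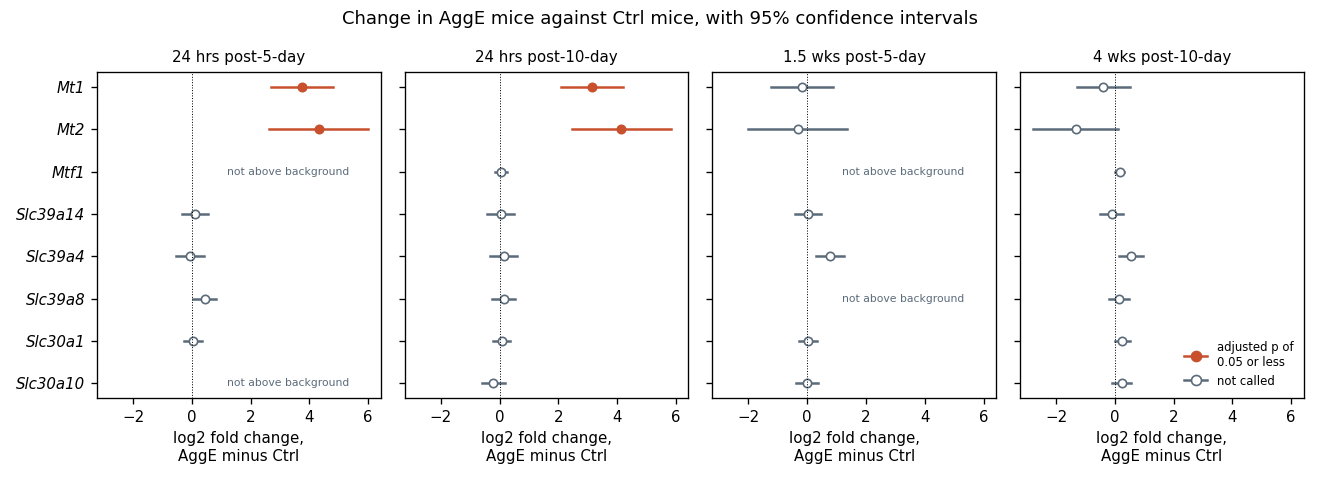
Log2 fold change of AggE against Ctrl mice for the 8 genes in the 4 comparisons, with 95% confidence intervals from the limma fit, filled red where the adjusted p was 0.05 or less and left out where a group was above background on no array. Mt1 and Mt2 are called at both 24-hr points with intervals above 2, and the intervals of all genes at 1.5 and 4 wks that do not include 0 belong to Slc39a4, which is not called.

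The fall of the metallothionein difference with time was tested as a difference between changes. For Mt1 the change at 24 hrs post-5-day exceeded that at 1.5 wks by 3.93 (SE 0.73, 95% interval 2.43 to 5.42, limma adjusted p = 0.0172). For Mt2 it exceeded it by 4.63 (SE 1.17), which did not pass (limma adjusted p = 0.188). Thus 1 of 8 genes was called, and higher, where 0.0876% of all genes were called and 0.0602% were called higher. The Mt1 call was lost without Ctrl mouse 4 of the 24-hr group or Ctrl mouse 1 or 2 of the 1.5-wk group (limma adjusted p = 0.0556, 0.0573 and 0.0585).

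After the 10-day regimen, the change at 24 hrs exceeded that at 4 wks by 3.53 for Mt1 (SE 0.69, 95% interval 2.14 to 4.92, limma adjusted p = 0.0263) and by 5.49 for Mt2 (SE 1.09, 95% interval 3.27 to 7.71, limma adjusted p = 0.0319). So 2 of 8 genes were called, both higher, where 0.0712% of all genes were called and 0.0602% were called higher. In the same comparison all 5 Kupffer cell markers (median 1.24) and all 6 hepatocyte markers (median 0.65) were higher and none was called, where 49.2% of all genes were higher. The part of these markers in the metallothionein values was not tested. Over 21 omissions of 1 mouse the call was kept in 11 for Mt1 and 7 for Mt2, with differences of 3.24 to 3.97 and 4.88 to 6.06. With the slide as a random block none of these differences was called (limma adjusted p = 0.459 to 1), with sizes of 3.91, 3.61 and 5.64 in the order given for the called ones. None was called either without normalization between arrays (limma adjusted p = 0.0742 to 0.68), and both 10-day differences lost their call with the scanner software's processed signals (0.0688 each), with the deposited ratios (0.0945 each) and with the groups compared fitted alone (0.0895 and 0.106).

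The Ctrl mice of the time points were themselves not alike in these genes. In Ctrl mice at 1.5 wks Mt1 stood above Ctrl mice at 24 hrs post-5-day by 2.66 on the log2 scale (SE 0.55, limma adjusted p = 0.000857) and Mt2 by 3.28 (SE 0.87, limma adjusted p = 0.00945), whereas Slc39a4 stood lower by a log2 difference of -1.26 (SE 0.25, limma adjusted p = 0.000479). These are 3 of 8 genes, where 13.4% of all genes were called between the same groups. The mean log2 ratio per mouse of 5 Kupffer cell markers was 0.68 to 2 in Ctrl at 1.5 wks and 2.12 to 2.58 in Ctrl at 24 hrs post-5-day. For 4 endothelial markers it was 0.16 to 0.61 and 0.84 to 1.12, and for 5 stellate cell markers -1.8 to -1.2 and -2.05 to -1.88. For 6 hepatocyte markers it was 5.97 to 6.56 and 6.07 to 6.29. The part of these markers in the differences was not tested. Against Ctrl mice at 24 hrs post-10-day, 6 of 8 genes were called at 1.5 wks (2 higher at 1.5 wks, Mt1 and Mt2, and 4 lower), where 16.1% of all genes were called. Against Ctrl mice at 4 wks, 5 of 8 were called at 1.5 wks (Mt1 higher and 4 transporter genes lower), where 26.4% of all genes were called. In Ctrl mice at 1.5 wks Slc39a8 was above background on 0 of 4 arrays, Slc30a1 and Slc30a10 on 1 each and Slc39a14 on 2, against all arrays of the Ctrl mice at 24 hrs post-10-day and 4 wks. The share of probes above background was 18.2% to 40.5% in Ctrl at 1.5 wks, 30.3% to 43.7% at 24 hrs post-10-day and 45.6% to 70.1% at 4 wks, and its part in the lower values was not tested. Under the random slide block 2 of 8 genes were still called against 24 hrs post-10-day (Slc39a4 and Slc30a1, lower) and 3 of 8 against 4 wks (Mt1 higher, Slc39a8 and Slc30a1 lower).

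Between Ctrl mice at 24 hrs post-10-day and at 4 wks, 1 of 8 genes was called, Slc39a4, lower at 4 wks, where 10.1% of all genes were called. Between the 2 Ctrl groups of the 24-hr points none was called by limma, where 0% of all genes were called, and 3 of 8 had an unadjusted p of 0.05 or less, against 5.39% of all genes. Between Ctrl mice at 24 hrs post-5-day and at 4 wks none was called either, where 12.5% of all genes were called, and 5 of 8 had such an unadjusted p, against 27.6% of all genes. All Ctrl arrays of the 24-hr points were scanned on the first day and all of the 4-wk point on the second, so scan day and time point cannot be told apart between them. The Ctrl groups lay on different slides, except that slide 8 held Ctrl mouse 4 of the 1.5-wk group with Ctrl mice 1, 2 and 3 of the 4-wk group. With the slide as a random block the excess at 1.5 wks over 24 hrs post-5-day was 2.68 for Mt1 (limma adjusted p = 0.0633) and 3.36 for Mt2 (0.204), no longer called, and the Slc39a4 difference of -1.21 was still called (0.0288). Without Ctrl mouse 4 of the 1.5-wk group the Mt1 and Mt2 values were 3.09 and 4.03 (limma adjusted p = 0.000296 and 0.00218).

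The order of the group means for Mt1 ran from AggE at 24 hrs post-5-day (-0.10) through AggE at 24 hrs post-10-day (-0.34), Ctrl at 1.5 wks (-1.18), AggE at 1.5 wks (-1.36), Ctrl at 4 wks (-3.32), Ctrl at 24 hrs post-10-day (-3.48) and AggE at 4 wks (-3.71) to Ctrl at 24 hrs post-5-day (-3.84). Only the step between AggE at 1.5 wks and Ctrl at 4 wks passed the test between neighbours (1.96, limma adjusted p = 0.00328). The neighbours were set by sorting these same means. The groups of this step differ in treatment, regimen, time and slides, and mostly in scan day, and no slide block was fitted for it. For Mt2 the order was AggE at 24 hrs post-10-day (0.41), AggE at 24 hrs post-5-day (0.25), Ctrl at 1.5 wks (-0.77), AggE at 1.5 wks (-1.09), Ctrl at 4 wks (-2.87), Ctrl at 24 hrs post-10-day (-3.74), Ctrl at 24 hrs post-5-day (-4.06) and AggE at 4 wks (-4.21). No Mt2 neighbours differed beyond their spread (limma adjusted p = 0.0887 to 1).

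Mt1 and Mt2 deviated together within groups. After the mean of each group was taken off, the deviations of 39 livers correlated with Pearson's r = 0.947 and Spearman's rho = 0.953 (permutation p = 1e-05 for each, the smallest that 100000 resamples can give). Without AggE mouse 5 at 24 hrs post-10-day and Ctrl mouse 1 at 4 wks, which lay farthest out in Mt1, r was 0.936. Both values of a mouse come from 1 array, and whether either probe also binds the other transcript was not tested. Mice were permuted within groups and not within slides, and the part of the slide in the correlation was not tested. The spread differed between groups. The SD of Mt2 was 1.32 and 1.40 in AggE mice at the 24-hr points, 1.69 and 1.05 in Ctrl and AggE mice at 1.5 wks, 2.11 in Ctrl mice at 4 wks, where mice 1 and 4 stood apart, and 0.22 to 0.40 in Ctrl mice at 24 hrs and AggE mice at 4 wks.

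**Figure D3:**
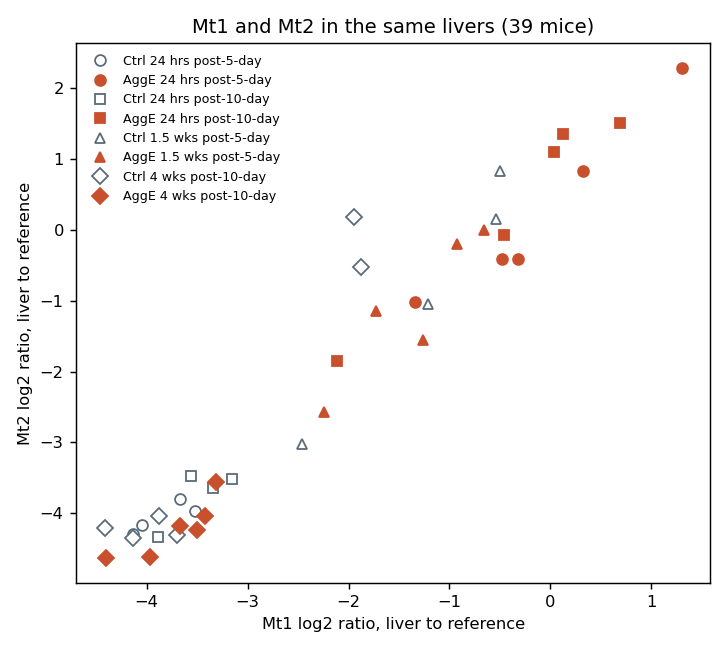
Mt2 against Mt1 as log2 ratio of liver to reference, with 1 point per mouse, open grey for Ctrl, filled red for AggE and a marker shape per time point. The mice lie along 1 line from Ctrl at 24 hrs and AggE at 4 wks (lower left) to AggE at 24 hrs (upper right), and Ctrl mice 1 and 4 at 4 wks lie above it.

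Of the other metallothionein genes on the array, Mt3 did not share the rise at 24 hrs, and Mt4 was too near background there to tell. Mt3, best known from brain, was at 1.15 ± 0.23 (SD, n = 4) in Ctrl and 0.52 ± 0.27 (SD, n = 5) in AggE at 24 hrs post-5-day, a log2 difference of -0.63 (SE 0.30, limma adjusted p = 0.283). Mt4, best known from squamous epithelium, was well above background in none of these 9 arrays. Neither was called by limma in any comparison, with 2, 0, 0 and 1 of 2 having an unadjusted p of at most 0.05 in the 4 comparisons in order of 24 hrs post-5-day, 24 hrs post-10-day, 1.5 wks and 4 wks. For all genes that share was 16.9%, 2.82%, 2.53% and 22.4% in the same order.

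Mtf1, the gene of the zinc sensor itself, was measured near the detection limit, with Cy-5 well above background on 18 of 39 arrays. At 24 hrs post-5-day it was at 0.03, -0.13, 0.11 and 0.07 in Ctrl mice and at -0.38, -0.05, -0.24, -0.07 and -0.24 in AggE mice, and the groups overlapped. The probe was above background on 1 of 4 Ctrl arrays and on 0 of 5 AggE arrays, so no fold is given, and it was not called (limma adjusted p = 0.211). The second Mtf1 probe was above background on none of the 39 arrays in either channel. Its fitted value at 24 hrs post-5-day was 0.37 and called (limma adjusted p = 0.0128), of opposite sign to that of the probe used, and neither is read as a change of Mtf1. At 24 hrs post-10-day the log2 fold change was 0.05, at 4 wks it was 0.16 (limma adjusted p = 0.264), and at 1.5 wks neither group was above background.

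Among the importers, Slc39a14, which takes zinc into hepatocytes and is known as an acute phase gene, stayed within the spread of the mice in all 4 comparisons of AggE with Ctrl. At 24 hrs post-5-day it was at 0.52, 0.47, 0.92 and 0.55 in Ctrl mice and at 1.14, 0.28, 0.42, 0.51 and 1.19 in AggE mice. AggE mice 1 and 5 were above all Ctrl mice and the other 3 were not. The log2 fold changes were 0.10 (SE 0.22), 0.04, 0.02 and -0.10 at 24 hrs post-5-day, 24 hrs post-10-day, 1.5 wks and 4 wks (limma adjusted p = 0.83 to 1), and the first had a 95% interval of -0.35 to 0.55. Its second probe was not called either (limma adjusted p = 0.361 to 1). At 1.5 wks the probe used was above background on 2 of 4 Ctrl and 4 of 5 AggE arrays.

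Slc39a8, an importer of zinc and manganese, was measured 24 hrs post-5-day at 0.42, 0.39, 0.62 and 0.15 in Ctrl mice and at 1.00, 0.48, 0.76, 0.67 and 1.22 in AggE mice. AggE mouse 2 lay within the Ctrl range and the other 4 lay above it, of which mice 3 and 4 were not well above background. A log2 difference of 0.43 (SE 0.20, 95% interval 0.03 to 0.83, unadjusted p = 0.0379 in limma) did not pass the adjustment (limma adjusted p = 0.252). After the 10-day regimen it was 0.14 at 24 hrs and 0.14 at 4 wks. At 1.5 wks the probe was above background on 0 of 4 Ctrl and 1 of 5 AggE arrays, so no fold is given. The second Slc39a8 probe was above background on only 2 arrays and was not called.

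Slc39a4, known mainly as the zinc importer of the gut, was well above background on all 39 arrays. At the 24-hr points it hardly differed between groups (log2 fold change -0.05 and 0.14, SE 0.23 each, limma adjusted p = 0.951 and 1). At 1.5 wks it was at 0.87, 1.15, 0.43 and 1.46 in Ctrl mice and at 1.44, 2.00, 1.79, 1.87 and 1.71 in AggE mice. The lowest AggE mouse (1.44) lay just under the highest Ctrl mouse (1.46), and the other 4 AggE mice were above all Ctrl mice. The log2 fold change was 0.78 (SE 0.23, 95% interval 0.31 to 1.26, 1.72-fold, unadjusted p = 0.00195 in limma), which did not pass the adjustment (limma adjusted p = 1). Within the first scan day it was 0.88, on the second day (1 AggE, 1 Ctrl) 0.54 and within the shared slide 0.89.

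At 4 wks the lowest, median and highest Slc39a4 values were 1.27, 1.42 and 2.34 in 6 Ctrl mice and 0.99, 2.39 and 2.70 in 6 AggE mice. AggE mouse 1 was the lowest of all 12 mice and the other 5 AggE mice lay at 2.22 or higher, above 5 of the 6 Ctrl mice. The log2 fold change was 0.56 (SE 0.20, 95% interval 0.15 to 0.97, limma adjusted p = 0.103). Without AggE mouse 1 it was 0.80 and was called (limma adjusted p = 0.00236). On the slide that held AggE mouse 1 with 3 Ctrl mice the difference was -0.37, and with slide as a fixed block it was -0.04 (limma adjusted p = 0.965).

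The exporter Slc30a1, which moves zinc out of the cell and is known to be driven by MTF1, did not follow the metallothioneins. At 24 hrs post-5-day it was at 0.23, 0.32, 0.59 and 0.15 in Ctrl mice and at 0.43, 0.06, -0.02, 0.45 and 0.84 in AggE mice. The AggE mice spread on both sides of the Ctrl range, and in AggE mice 3 and 4 the probe was not well above background. The log2 fold changes were 0.03 (SE 0.15), 0.07, 0.03 and 0.25 at 24 hrs post-5-day, 24 hrs post-10-day, 1.5 wks and 4 wks (limma adjusted p = 0.264 to 1). The 95% interval at 24 hrs post-5-day was -0.27 to 0.33, and at 1.5 wks the probe was above background on 3 of 9 arrays. The second Slc30a1 probe was above background on 34 arrays, against 31 for the probe used. It gave 0.21 at 24 hrs post-5-day (95% interval -0.13 to 0.56, limma adjusted p = 0.58) and was not called in any comparison.

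Slc30a10, named as a zinc transporter and known above all as a manganese exporter, was measured 24 hrs post-5-day at 0.26, 0.26, 0.47 and 0.50 in Ctrl mice and at 0.00, 0.00, 0.14, -0.08 and 0.90 in AggE mice. AggE mouse 5 was the highest and the other 4 AggE mice were the lowest, but 0 of 5 AggE arrays and 2 of 4 Ctrl arrays were above background, so no fold is given. At 24 hrs post-10-day it was at 1.30, 0.50, 1.06 and 0.95 in Ctrl mice and at 0.50, 0.46, 0.60, 0.48 and 1.69 in AggE mice. Again AggE mouse 5 was the highest, and the log2 fold change was -0.21 (limma adjusted p = 1). At 4 wks it was 0.23 (limma adjusted p = 0.439), and at 1.5 wks, where the probe was above background on 1 of 4 Ctrl and 2 of 5 AggE arrays, the fitted value of 0.00 rests mostly on signals near background. The reference signal of this probe was above background on 0 of 39 arrays. The second Slc30a10 probe gave 0.05 at 24 hrs post-10-day, of opposite sign to the probe used, and was not called in any comparison.

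**Figure D4:**
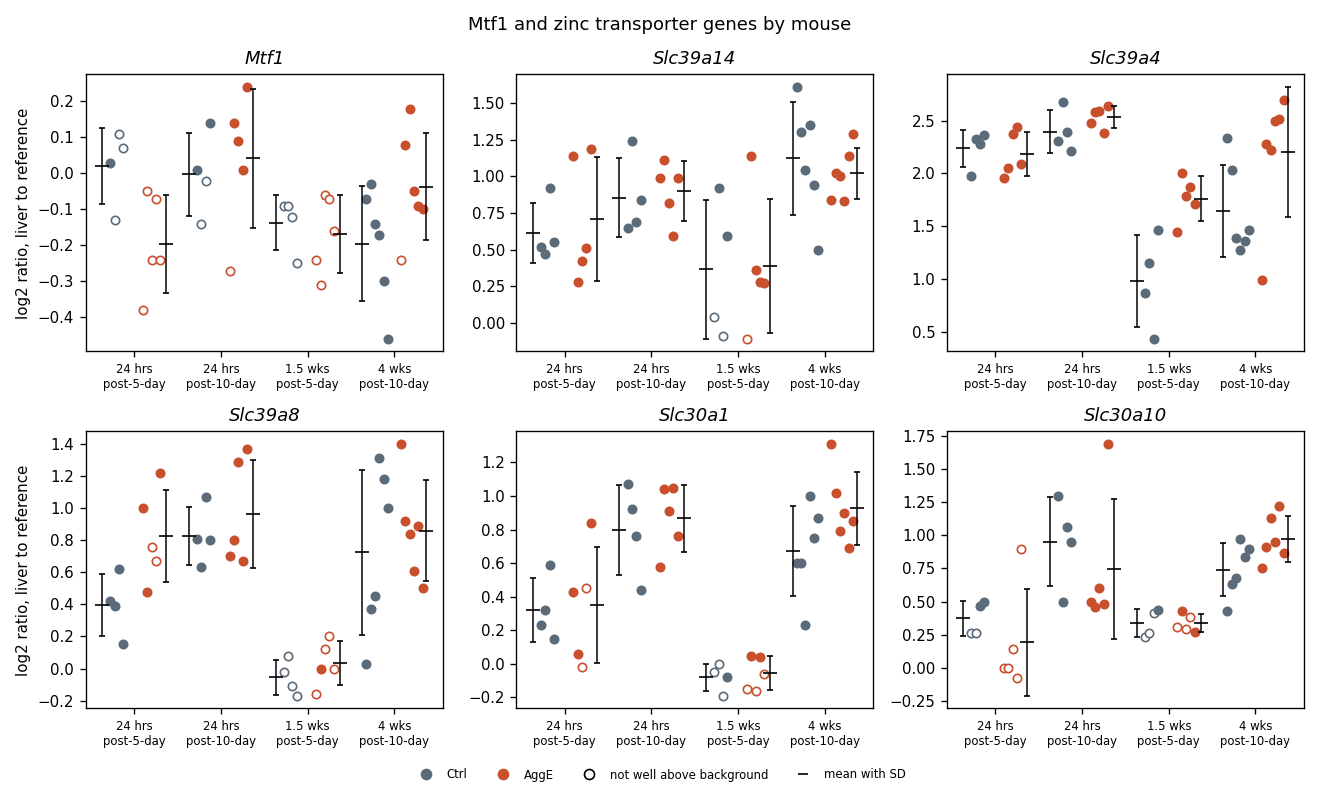
Log2 ratio of liver to reference for Mtf1 and the 5 transporter genes, with 1 point per mouse (open where the probe was not well above background in that liver) and the mean with its SD beside each group; the vertical scales differ between panels. AggE and Ctrl mice overlap in all panels at 24 hrs, and Slc39a4 at 1.5 wks shows 4 of 5 AggE mice above all Ctrl mice.

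The 8 genes together had a median log2 fold change of 0.06, 0.10, 0.01 and 0.15 at 24 hrs post-5-day, 24 hrs post-10-day, 1.5 wks and 4 wks, beside medians of all genes of 0.002, -0.0015, -0.0036 and 0.0083. Of the other SLC39 genes, 10 of 11 were measured and none was called by limma in any of the 4 comparisons, with 2, 1, 0 and 3 of them at an unadjusted p of 0.05 or less, against 16.9%, 2.82%, 2.53% and 22.4% of all genes. Their median log2 fold change lay between -0.06 and 0.00. Of the other SLC30 genes, 7 of 8 were measured and 1 was called, at 24 hrs post-5-day, where 3.03% of all genes were called. That was Slc30a6, an exporter into the Golgi, at 0.14 ± 0.10 (SD, n = 4) in Ctrl and -0.15 ± 0.12 (SD, n = 5) in AggE (limma adjusted p = 0.0392). It was above background on 3 of 4 Ctrl and 0 of 5 AggE arrays, so no fold is given, and the call ended with the slide as a random block (limma adjusted p = 0.607).

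Of 10 copper handling genes, 1 was called, at 24 hrs post-5-day, where 3.03% of all genes were called. Cp, which encodes the copper-carrying acute phase protein ceruloplasmin, rose by 0.72 on the log2 scale at 24 hrs post-5-day (SE 0.19, limma adjusted p = 0.0289) and differed by 0.44 at 24 hrs post-10-day (limma adjusted p = 1). With the slide as a random block the post-5-day value was 0.58 and no longer called (limma adjusted p = 0.667). The median of the 10 was -0.08 and -0.02 at these points. Of 5 other genes reported to be under MTF1 control, none was called by limma at either 24-hr point, and 0 of 5 had an unadjusted p of 0.05 or less at each, against 16.9% and 2.82% of all genes. At 4 wks 1 of 5 was called and 3 of 5 had such an unadjusted p, against 4.01% and 22.4% of all genes. The called gene, Slc40a1 (the iron exporter ferroportin), was at 3.35 ± 0.26 (SD, n = 6) in Ctrl and 2.55 ± 0.32 (SD, n = 6) in AggE, and fell by 0.80 on the log2 scale (SE 0.21, limma adjusted p = 0.0306), which was -0.67 and not called with the slide as a random block (limma adjusted p = 0.222). The median of the 5 was -0.45 there. Of 5 Kupffer cell markers, 4 also had a lower AggE mean at 4 wks (2.02 to 2.78 in Ctrl, 1.49 to 2.36 in AggE, none called), and their part in the Slc40a1 value was not tested. Of 6 genes of IL-6 signalling and 7 measured genes (of 8) of a list made of the glucocorticoid receptor gene Nr3c1 and its targets, none was called by limma at any point, with 1, 0, 0 and 1 of 6 and 1, 0, 0 and 0 of 7 at an unadjusted p of 0.05 or less, against the same 16.9%, 2.82%, 2.53% and 22.4% of all genes.

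Over 39 arrays, the profiles most like those of Mt1 and Mt2 included acute phase genes. Among 10712 genes, those with the highest Pearson correlation with Mt1 were Mt2 (0.972), Lcn2 (0.783), Saa3 (0.746), Cdkn2c (0.733) and Rab2b (0.725). With Mt2 they were Mt1, Ptgr1 (0.721), Lcn2 (0.716), Coro7 (0.709) and Rab2b (0.677). After the group means were taken off, the coefficients with Mt1 were lower, at 0.565 for Lcn2, 0.46 for Saa3, 0.176 for Cdkn2c and 0.324 for Rab2b, and those with Mt2 were 0.528 for Ptgr1, 0.424 for Lcn2, 0.6 for Coro7 and 0.344 for Rab2b. All are descriptions over arrays that share groups, slides and a reference. Lcn2, a siderophore-binding protein, was above background in no Ctrl mouse at either 24-hr point, with AggE at least 6.28-fold higher post-5-day and at least 5.28-fold higher post-10-day by the bound described for Epcam. Saa3, a serum amyloid A, had log2 differences of 4.23 and 3.33 there. Both genes were picked for a profile like that of Mt1 on the same arrays, so these values are descriptions with no test. For Slc39a14 the closest profiles were As3mt (0.823), Pla1a (0.81) and Tmem125 (0.793), and for Slc30a10 they were Map7 (0.839), Cd59b (0.831) and Ngfr (0.83).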

How the data were processed

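Liver RNA of 39 mice was hybridized to 2-colour Agilent arrays. The deposited values used here are, per the file headers, median spot intensities and median local background intensities of both channels from Feature Extraction 11.5.1.1. The deposited log10 ratios, made by the authors' Feature Extraction, and its processed signal intensities served as alternatives.

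Background was corrected with normexp (offset 50), arrays were loess-normalized and then quantile-normalized in limma 3.58.1 (R 4.3.3, data.table version 1.17.8, statmod 1.5.0). Outlier spots were set to missing, control spots removed and spots of a probe averaged. The plan named mean spot intensities, and the median column was used in their place. Of 41174 probes, 25903 with a RefSeq accession were fitted together with 8 group means and Benjamini-Hochberg adjustment, and 24375 of them had a symbol in the GRCm38.p6 RefSeq annotation. The code was tested on simulated data. A gene is its brightest probe. Named genes are the 8 genes, list genes called in a comparison of AggE with Ctrl, and the genes of most similar profile among those above background in at least 1 group. The genes and lists were chosen with earlier results of these data known. The lists are other metallothioneins, SLC39 and SLC30 genes, copper handling, MTF1 targets, IL-6 signalling, the glucocorticoid receptor and its targets, and markers of liver and other cells. Alternatives covered background, scaling, probes, fits, blocks and leaving out each mouse, and those for the comparison of Ctrl groups and the slide block for called list genes were added after seeing the data. Protein, metabolite and PCR data were not analysed here.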

Additional observations from a re-analysis of the deposited data

Results flagged for a closer look

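Among 64 combinations of gene and group, 4 held a mouse that stood apart from the others of its group by the gap to its nearest neighbour, and chance gives about 1 in 20. Slc30a10 was at 0.90 in AggE mouse 5 at 24 hrs post-5-day, where the others lay between -0.08 and 0.14, and at 1.69 in AggE mouse 5 at 24 hrs post-10-day, where the others lay between 0.46 and 0.60. In both groups the array of mouse 5 lay on another slide than the arrays of the other 4 mice. Slc39a4 was at 0.99 in AggE mouse 1 at 4 wks, where the others lay between 2.22 and 2.70, and its array lay on a slide with Ctrl mice. Mtf1 was at -0.25 in Ctrl mouse 4 at 1.5 wks, where the others lay between -0.12 and -0.09, with the probe not above background on any of these arrays. The part of slide and scan day in these values was not tested.

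The difference between AggE and Ctrl mice changed between time points for Mt1 by 3.93 on the log2 scale (24 hrs minus 1.5 wks post-5-day), and for Mt1 by 3.53 and Mt2 by 5.49 (24 hrs minus 4 wks post-10-day), by limma's test of the difference (adjusted p = 0.0172, 0.0263 and 0.0319). None of the 3 was called with the slide as a random block. The first comes from both groups, as the Mt1 mean was -3.84 and -1.18 in Ctrl mice and -0.10 and -1.36 in AggE mice, at the earlier and the later point.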

How the results depend on the processing

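The 8 genes gave 1624 values under the alternatives, of which 1391 kept their direction and side of the threshold, 58 lost a call, 4 gained one and 171 changed sign, and all 171 were uncalled in both settings. The 24-hr differences of Mt1 and Mt2 changed sign in none. The slide as a random block (consensus correlation 0.321) left 0 of the 8 genes called at 24 hrs post-5-day, at 24 hrs post-10-day, in 24 hrs minus 1.5 wks and in 24 hrs minus 4 wks, and a fixed slide term could be estimated only at 1.5 and 4 wks. The precision is set by 4 to 6 arrays a group, and the genes other than Mt1, Mt2 and Slc39a4 were not above background on every array. The cause of the changed calls was not tested.

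In 24 hrs minus 4 wks, 0 genes were called with the processed signals and with the log10 ratios of the series table. Without normalization between arrays or with Aquantile, 1 was called at 24 hrs post-10-day, 0 in 24 hrs minus 1.5 wks and 0 in 24 hrs minus 4 wks. With only the groups of the comparison, 0 were called at 24 hrs post-10-day and 0 in 24 hrs minus 4 wks. With array weights, 1 was called at 4 wks (Slc39a4, 0.71), 2 in 24 hrs minus 1.5 wks and 3 in 24 hrs minus 4 wks, with Slc30a10 lower (limma adjusted p = 0.0411). Leaving out 1 mouse gave 2 to 2 calls at 24 hrs post-5-day, 1 to 2 at 24 hrs post-10-day, 0 to 0 at 1.5 wks, 0 to 1 at 4 wks, 0 to 0 in 5-day minus 10-day, 0 to 1 in 24 hrs minus 1.5 wks and 0 to 2 in 24 hrs minus 4 wks.

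Mice share only a replicate number, as the deviations of same-numbered mice correlated at -0.448 to 0.502, over 0.1 in 5 of 18 pairs. With that number as a replicate block the calls at 24 hrs were 3.83 (Mt1) and 4.48 (Mt2) post-5-day and 3.58 and 4.72 post-10-day, and the Mt1 difference of 24 hrs minus 1.5 wks was 3.80 and lost its call (limma adjusted p = 0.0846), which left 0 of 8 called there.

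The values that changed sign, each as log2 fold change, were as follows, in none of which the gene was called. Those that use Mtf1 or Slc30a10 at 24 hrs post-5-day, or Mtf1 or Slc39a8 at 1.5 wks, are fitted values with a group above background on no array, and no measure of a fold. With a normexp offset of 16 they were Slc30a1 -0.12 (24 hrs post-5-day), Slc30a10 -0.01 (1.5 wks), Slc39a14 -0.02 and Slc30a10 -0.05 (5-day minus 10-day) and Slc39a14 -0.03 and Slc30a1 -0.16 (24 hrs minus 1.5 wks). Without background correction they were Slc39a4 0.06 and Slc30a1 -0.16 (24 hrs post-5-day), Slc39a14 -0.08 (5-day minus 10-day), Slc39a14 -0.15 and Slc30a1 -0.28 (24 hrs minus 1.5 wks) and Slc39a8 -0.09 (24 hrs minus 4 wks). With the processed signals, and equally with the log10 ratios of the series table except for a Slc30a10 5-day minus 10-day value of -1.61, they were Mtf1 0.17, Slc39a14 -0.14 and Slc30a1 -0.23 (24 hrs post-5-day), Slc39a14 -0.23 and Slc30a10 -1.68 (5-day minus 10-day), Mtf1 0.30, Slc39a14 -0.47, Slc39a8 -0.70 and Slc30a1 -0.73 (24 hrs minus 1.5 wks) and Mtf1 0.28 and Slc39a8 -0.12 (24 hrs minus 4 wks). Without normalization between arrays, and equally with Aquantile, they were Slc39a14 -0.12 and Slc30a1 -0.17 (24 hrs post-5-day), Slc39a14 -0.16, Slc39a4 -0.04, Slc39a8 -0.17 and Slc30a1 -0.12 (24 hrs post-10-day), Slc30a10 -0.01 (1.5 wks), Slc39a8 -0.34, Slc30a1 -0.10 and Slc30a10 -0.21 (4 wks) and Slc39a14 -0.16, Slc39a8 -0.05 and Slc30a1 -0.19 (24 hrs minus 1.5 wks). With Cy-5 alone they were Mtf1 -0.01 (24 hrs post-10-day), Mtf1 0.01 (1.5 wks), Slc30a10 -0.01 (4 wks), Slc30a10 -0.04 (5-day minus 10-day) and Slc30a1 -0.02 (24 hrs minus 1.5 wks). With the mean over the probes of a gene they were Mtf1 0.08 (24 hrs post-5-day), Mtf1 0.02 and Slc39a14 -0.03 (1.5 wks), Slc39a14 0.06 (4 wks), Mtf1 0.07, Slc30a1 0.05 and Slc30a10 -0.10 (5-day minus 10-day), Mtf1 0.06 (24 hrs minus 1.5 wks) and Slc39a14 -0.02 and Slc39a8 -0.02 (24 hrs minus 4 wks). With array weights they were Slc30a1 -0.09 (24 hrs post-5-day), Slc39a14 -0.01 (1.5 wks), Mt2 -0.37 and Slc39a14 -0.01 (5-day minus 10-day), Slc30a1 -0.10 (24 hrs minus 1.5 wks) and Slc39a8 -0.12 (24 hrs minus 4 wks). With the slide as a random block they were Slc39a14 0.00, Slc39a8 -0.01, Slc30a1 -0.04 and Slc30a10 -0.12 (1.5 wks), Slc30a1 0.08 (5-day minus 10-day) and Slc30a10 0.08 (24 hrs minus 1.5 wks). With the slide as a fixed block they were Slc30a10 -0.13 (1.5 wks) and Slc39a4 -0.04 and Slc30a10 -0.06 (4 wks). With the scan day as a fixed block they were Slc30a1 0.00 (24 hrs minus 1.5 wks). With the replicate block they were Slc39a14 -0.02 and Slc30a1 -0.09 (24 hrs post-5-day), Mtf1 0.00 (24 hrs post-10-day), Mt1 0.03 and Mt2 0.05 (1.5 wks), Mt2 -0.24 and Slc39a14 -0.04 (5-day minus 10-day), Slc39a14 -0.08 and Slc30a1 -0.12 (24 hrs minus 1.5 wks) and Slc39a8 -0.10 (24 hrs minus 4 wks). Over the omissions of 1 mouse, the values spanned Slc39a14 -0.02 to 0.20, Slc39a4 -0.14 to 0.00 and Slc30a1 -0.09 to 0.12 (24 hrs post-5-day), Mtf1 0.00 to 0.12, Slc39a14 -0.03 to 0.17 and Slc30a1 -0.05 to 0.16 (24 hrs post-10-day), Mt1 -0.61 to 0.04, Mt2 -1.07 to 0.22, Mtf1 -0.07 to 0.01, Slc39a14 -0.16 to 0.21, Slc30a1 -0.01 to 0.05 and Slc30a10 -0.04 to 0.04 (1.5 wks), Slc39a8 0.00 to 0.25 (4 wks), Mt2 -0.41 to 0.48, Slc39a14 -0.08 to 0.16, Slc30a1 -0.17 to 0.08 and Slc30a10 -0.15 to 0.26 (5-day minus 10-day), Slc39a14 -0.11 to 0.26 and Slc30a1 -0.12 to 0.09 (24 hrs minus 1.5 wks) and Slc39a8 -0.12 to 0.14 (24 hrs minus 4 wks). For Ctrl at 1.5 wks minus Ctrl at 4 wks, the Mtf1 value was -0.02 with the slide as a random block.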
